A study of Mus musculus with 8 samples.

Results

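The central major urinary protein genes are 10 near-identical copies, Mup1, Mup7, Mup9, Mup10, Mup11, Mup12, Mup13, Mup14, Mup16 and Mup17, that lie side by side on mouse chromosome 4. They were taken by symbol from the list of 23699 loci measured in mouse liver, where each of the 10 symbols stood at 1 locus. They were chosen by their FPKM differences between knockout and control livers, so those differences are given as a description and carry no test.

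Livers came from 8-week-old male mice of strain C57/BL6. LMKO mice carried a knockout of Med23, a subunit of Mediator, the bridge between DNA-bound regulators and the transcription machinery, in the liver only. The other mice were labelled control. The Cre driver of the knockout and the alleles of the controls are not given in the sources used here. Mice of each genotype were sampled after a fast of 24 h, or were given food for a further 24 h once that fast had ended, so that all 4 groups had been through the same fast. Each group held 2 mice, with 1 library of polyadenylated RNA per mouse, so the spread within a group is a spread between animals.

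Major urinary proteins are small lipocalins, barrel-shaped carriers of volatile pheromones, that hepatocytes secrete into the blood and that male mice pass into the urine in large amounts. The central genes arose by recent duplication, whereas copies at the edges of the cluster (Mup3, Mup20 and Mup21 among them) are more divergent. In liver their transcription is known to depend on pulses of growth hormone, acting through JAK2 and STAT5, and on thyroid hormone and glucocorticoid, and it is much higher in adult males than in females.

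Levels were deposited as FPKM, fragments scaled to transcript length and to the mapped fragments of the library, so levels of different genes can be compared per length. Library totals ran from 453652 to 597650 FPKM, with 10096 to 10403 loci at 1 FPKM or more. Med23 stood at 2.86 and 2.93 FPKM in fasted controls, at 2.35 and 2.18 in fasted LMKO, at 2.86 and 2.33 in re-fed controls and at 1.61 and 1.74 in re-fed LMKO. The LMKO means were 1.28-fold lower fasted and 1.55-fold lower re-fed, so Med23 RNA was reduced and not absent. Both states showed no overlap, as did 12.8% and 19.4% of all tested loci in that direction. Of 10 hepatocyte markers, 9 averaged at least 1 FPKM, and albumin (Alb) had an FPKM of 0 in every library, so a listed 0 can be a failed estimate. The 9 others summed to 23625 to 24588 FPKM in fasted controls and 26767 to 27667 in fasted LMKO, and to 25878 to 31898 and 30239 to 38751 in the re-fed groups. All fasted libraries carried 1 prefix in the deposited names and all re-fed libraries another; what it marks is not given, and it cannot be told apart from feeding. Genotype comparisons were made within a prefix.

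The copies differ by so few bases that short reads can rarely be told apart, and the coding starts are shown because they carry 5 of the 16 positions at which the coding sequences vary. The sequences come from the GENCODE M21 annotation of build GRCm38, positions 1 to 48 counted from the first base of the start codon (1 to 51 for Mup11), within the stretch that encodes the secretion signal. Capitals mark bases that differ from Mup10 and, in Mup11, also the 3 extra bases, whose placement inside the repeat is arbitrary.
Mup10: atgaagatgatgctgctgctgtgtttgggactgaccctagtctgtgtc
Mup9: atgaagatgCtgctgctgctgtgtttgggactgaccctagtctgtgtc
Mup17: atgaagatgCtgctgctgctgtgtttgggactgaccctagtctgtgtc
Mup1: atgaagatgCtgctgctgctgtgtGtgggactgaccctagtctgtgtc
Mup12: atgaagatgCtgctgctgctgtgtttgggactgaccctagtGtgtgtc
Mup7: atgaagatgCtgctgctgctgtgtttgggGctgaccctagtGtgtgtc
Mup14: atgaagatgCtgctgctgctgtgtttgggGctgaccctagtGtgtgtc
Mup13: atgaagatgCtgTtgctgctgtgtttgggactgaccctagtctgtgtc
Mup16: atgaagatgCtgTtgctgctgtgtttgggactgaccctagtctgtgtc
Mup11: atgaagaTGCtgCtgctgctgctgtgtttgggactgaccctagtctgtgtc

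A further 5 variable positions fell between coding positions 151 and 222. The window is shown for the 3 most abundant genes with a distinct sequence there and for Mup13, which is identical to Mup17 in it; capitals again mark differences from Mup10.
Mup10: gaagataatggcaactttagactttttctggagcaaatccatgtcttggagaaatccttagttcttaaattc
Mup7: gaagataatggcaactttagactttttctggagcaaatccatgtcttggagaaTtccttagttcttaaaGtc
Mup17: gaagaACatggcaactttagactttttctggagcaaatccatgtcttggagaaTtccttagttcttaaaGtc
Mup13: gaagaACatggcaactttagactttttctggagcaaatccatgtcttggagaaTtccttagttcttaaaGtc

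Over the 540 coding bases that were compared, the 45 pairs of central genes differed by 1 to 9 bases, an identity of 98.33% to 99.81%. Mup9 was nearest to Mup10, with 2 differing bases, and Mup13 farthest, with 8. Mup10 carried 2 coding bases found in no other central gene, Mup1, Mup7, Mup13, Mup14, Mup16 and Mup17 carried 1 each, and Mup9, Mup11 and Mup12 carried 0. Against the divergent genes the identity was lower, 85.1% to 86.03% with Mup3, 90.56% to 91.48% with Mup20 and 84.07% to 85% with Mup21. Near-identity reached beyond the 10 genes: Mup2, Mup8, Mup15 and Mup19 were 98.52% to 99.81% identical to them, and in the files these were listed at or near 0, apart from Mup8, which reached 7.71 FPKM.

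**Figure D1:**
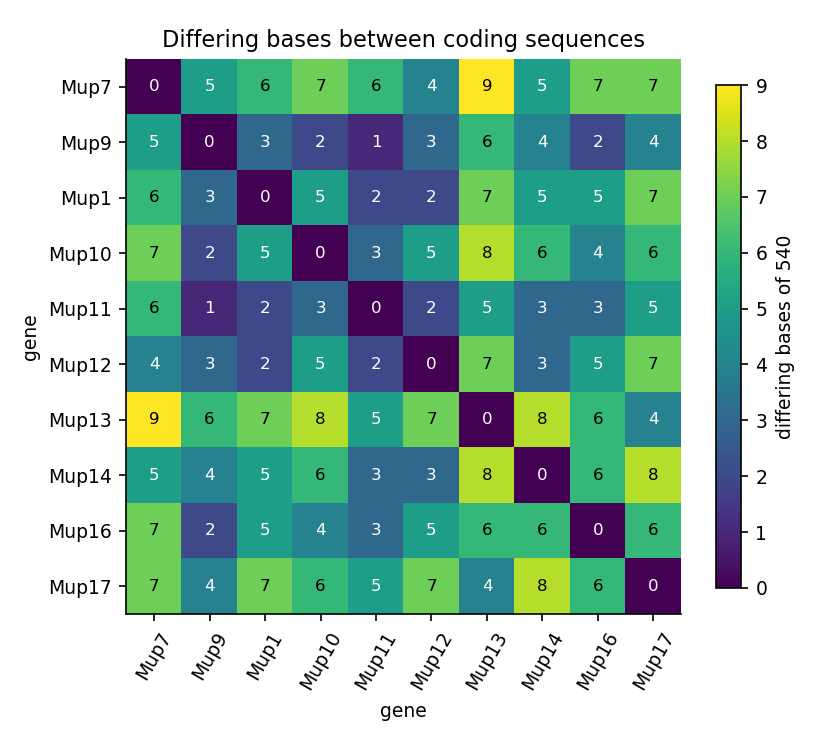
Number of differing bases between the coding sequences of each pair of central Mup genes, out of 540 compared, as a colour scale. All 45 pairs lie between 1 and 9 differing bases.

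To see how much of each transcript could be assigned to 1 gene, every window of 50 bases was looked up in the transcripts of all other Mup genes. The share of windows found in no other Mup transcript was 2.4% for Mup14, the lowest, 5.24% for Mup1, 5.69% for Mup7 and 6.39% for Mup13. It was 7.85% for Mup9, 9.34% for Mup16, 11% for Mup11, 13.8% for Mup10 and 14.6% for Mup12, and highest for Mup17, at 21.9%. How reads mapping to several copies were divided is not stated in the available sources, so the level of a single copy is uncertain and the sum over the copies stands beside it throughout. The reference build also differs from the mm9 build of the deposited loci. The locus length matched the reference for Mup7 alone among the 10 symbols and was 35 bases longer to 1247 bases shorter for the others. A symbol may therefore not name the same copy in both.

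RefSeq (GRCm38.p6) gave promoter windows for 6 of the 10 genes, Mup7, Mup9, Mup10, Mup11, Mup14 and Mup17. Those of Mup10 and Mup17 are shown because these genes were both abundant in control liver and stood far apart in the genotype difference, at its opposite ends in re-fed livers; they are the 250 bases before the annotated start, minus strand, chr4:60582156-60582405 for Mup10 and chr4:61595833-61596082 for Mup17, with the letters TATATAA in capitals.
Mup10: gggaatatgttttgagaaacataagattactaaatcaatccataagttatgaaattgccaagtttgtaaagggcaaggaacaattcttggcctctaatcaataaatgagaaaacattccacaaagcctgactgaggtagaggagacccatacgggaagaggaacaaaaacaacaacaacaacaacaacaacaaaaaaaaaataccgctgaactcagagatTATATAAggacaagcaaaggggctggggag
Mup17: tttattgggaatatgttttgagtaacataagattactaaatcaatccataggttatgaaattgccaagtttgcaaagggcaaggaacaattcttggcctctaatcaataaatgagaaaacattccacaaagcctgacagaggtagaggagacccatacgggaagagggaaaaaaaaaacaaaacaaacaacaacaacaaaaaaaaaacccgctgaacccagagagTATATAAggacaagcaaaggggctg

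Windows of 300 bases that also held 50 bases past the start were aligned in pairs. Identity was counted over the aligned bases alone, 163 to 296 of them, with 163 to 217 in pairs with Mup7. The 5 promoter pairs with Mup10 were 94.8% to 97% identical and the 10 pairs without it 97.2% to 99.6%. Searched on both strands, the STAT motif TTCNNNGAA was in 0 of the 6 windows (8.3% of 32851 promoters of the same length hold it), TATAAA in 0 of 6 (13.6%) and the C/EBP motif TTGCNNAA in 0 of 6 (10.8%). The letters TATATAA, searched after the sequences had been seen, were in 5 of 6, Mup7 being the exception, and in 3.24% of all promoters. The annotated start of Mup7 follows a stretch that in Mup10 and Mup17 lies more than 50 bases before TATATAA. The Mup7 window therefore did not cover the matching site. Whether Mup7 holds TATATAA there was not tested. A match or its absence describes the letters in this window and nothing about binding.

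LMKO livers held less central Mup RNA in both feeding states. The 10 genes summed to 8989 and 11801 FPKM in fasted controls, to 2178 and 4053 in fasted LMKO, to 8072 and 8508 in re-fed controls and to 2385 and 2348 in re-fed LMKO. Both LMKO libraries lay below both controls in each state. The group means were 10395 ± 1988 and 3115 ± 1326 FPKM in the fasted state, 3.34-fold lower in LMKO, and 8290.2 ± 308 and 2367 ± 25.8 in the re-fed state, 3.50-fold lower (SD, n = 2 mice each, also for the means below). As a share of all FPKM in a library, the sum came to 1.95% and 2.60% in fasted controls, to 0.467% and 0.866% in fasted LMKO, to 1.58% and 1.54% in re-fed controls and to 0.399% and 0.404% in re-fed LMKO. In RNA from whole liver, fewer cells of a type and less RNA per cell cannot be told apart.

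**Figure D2:**
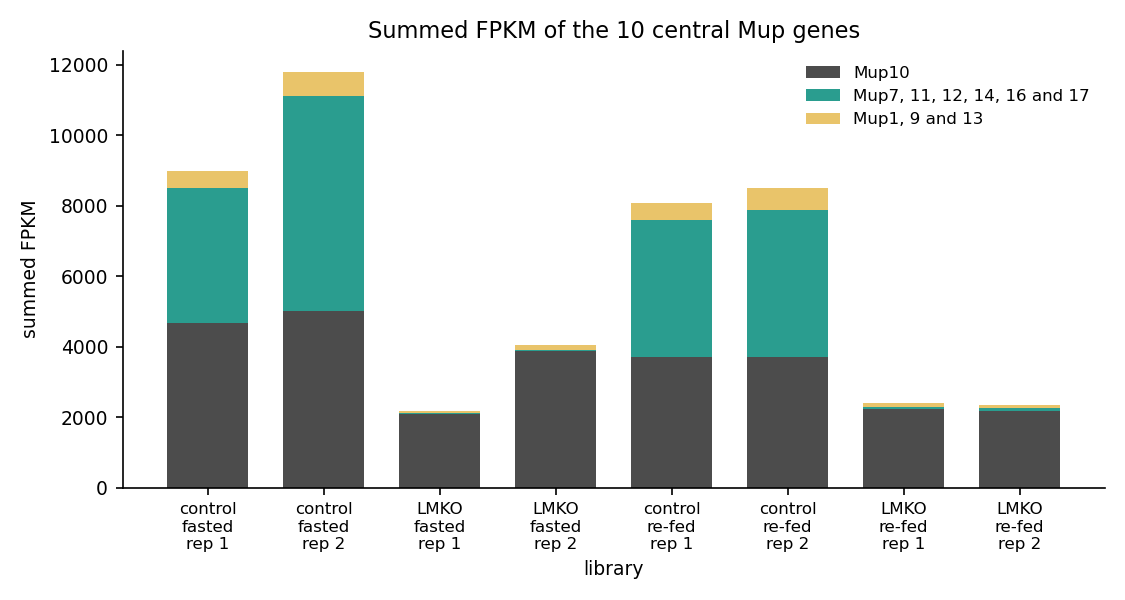
Summed FPKM of the 10 central Mup genes in each of the 8 libraries, stacked as Mup10, the sum of Mup7, Mup11, Mup12, Mup14, Mup16 and Mup17, and the sum of Mup1, Mup9 and Mup13. LMKO bars, 2178 to 4053 FPKM, lie below all control bars, 8072 to 11801 FPKM, and consist almost wholly of Mup10.

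The difference was unequal among the copies. All 10 genes passed the minimum of 1 FPKM in 2 libraries, and all 10 had both LMKO libraries below both controls in each state; over all 10865 tested loci that was so for 12.8% in the fasted and 19.4% in the re-fed state, with 33% and 25.6% the other way round, and since genotype chose the genes nothing is read from the count. On the log2(FPKM + 1) scale, which understates changes of low genes, the median difference of the 10 genes was -5.61 in fasted and -4.49 in re-fed livers, beside 0.0786 and 0.00801 over all loci. The range was from -8.45 for Mup7 to -0.76 for Mup10 in the fasted state, and from -7.44 for Mup17 to -0.75 for Mup10 in the re-fed state.

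Mup10, the most abundant copy, differed least. It stood at 4656 and 5019 FPKM in fasted controls, at 2098 and 3866 in fasted LMKO, at 3711 and 3709.8 in re-fed controls and at 2237 and 2183 in re-fed LMKO. The LMKO means were 1.62-fold lower in fasted livers (2982 ± 1251 against 4838 ± 257 FPKM) and 1.68-fold lower in re-fed livers (2210.1 ± 38.0 against 3710.4 ± 0.714 FPKM). Fasted LMKO replicate 2 sat closer to the controls than to its group mate. Without that library the fasted log2 difference was -1.20 and without fasted LMKO replicate 1 it was -0.32, where all libraries gave -0.76 (SE 0.267). In re-fed livers it was -0.75 (SE 0.267).

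A second set, formed after the values were seen, held Mup7, Mup11, Mup12, Mup14, Mup16 and Mup17, which ran from 26.8 to 2642 FPKM in control libraries and from 0.0794 to 50.5 in LMKO libraries, with Mup7 in re-fed LMKO the highest. Together they summed to 3850.0 and 6094 FPKM in fasted controls and 16.2 and 21.8 in fasted LMKO, 261-fold lower by the means. In the re-fed state the sums were 3890.3 and 4163 in controls and 48.2 and 77.0 in LMKO, 64.3-fold lower. For each gene of this set, both control libraries lay above both LMKO libraries in each state.

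Mup7, at the end of the central block with the lowest coordinates, stood at 1878 and 2642 FPKM in fasted controls, at 5.13 and 5.596 in fasted LMKO, at 1600.1 and 1842 in re-fed controls and at 27.4 and 50.5 in re-fed LMKO. The LMKO mean was 422-fold lower in fasted and 44.1-fold lower in re-fed livers. Mup17, at the other end of the block and the copy with most sequence of its own, stood at 983 and 1627 FPKM in fasted controls, at 1.67 and 9.58 in fasted LMKO, at 1329 and 1149.9 in re-fed controls and at 5.96 and 6.34 in re-fed LMKO. Its fold was alike in both states, 232-fold lower fasted and 202-fold lower re-fed, and its log2 differences were -7.90 and -7.44 (SE 0.588).

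Mup11, the copy with 1 extra codon, had 432 and 727 FPKM in fasted controls against 2.55 and 0.404 in fasted LMKO, and 429.6 and 538 against 3.94 and 4.63 in the re-fed state. Mup14, the copy with least sequence of its own, had 233 and 546 against 2.54 and 0.0794 fasted, and 266 and 299 against 5.62 and 9.28 re-fed. The fasted LMKO libraries of both genes were far apart, so a fold there is imprecise: the means were 393-fold lower for Mup11 and 297-fold for Mup14 in the fasted state, and 113-fold and 37.9-fold in the re-fed state. Mup16 had 269 and 462 FPKM against 3.40 and 4.91 fasted (87.8-fold lower) and 239 and 286 against 3.61 and 4.76 re-fed (62.7-fold lower). Mup12, the lowest of the set, had 55.4 and 90.2 against 0.945 and 1.23 fasted (67.0-fold lower) and 26.8 and 48.7 against 1.61 and 1.46 re-fed (24.6-fold lower).

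Mup1, Mup9 and Mup13, also grouped after the values were seen, lay between Mup10 and the others. Mup1 stood at 321 and 491 FPKM in fasted controls, at 43.6 and 125 in fasted LMKO, at 306 and 427 in re-fed controls and at 71.4 and 48.9 in re-fed LMKO, a mean 4.82-fold lower fasted and 6.09-fold lower re-fed. Mup9 stood at 156 and 185 FPKM, 19.1 and 38.2, 156 and 199, and 27.0 and 38.8 in the same order, 5.95-fold and 5.40-fold lower. Mup13, the least abundant copy in controls, stood at 6.37 and 12.2 FPKM, 0.784 and 1.62, 9.70 and 9.23, and 1.28 and 0.398, 7.75-fold and 11.3-fold lower. Fasted LMKO replicate 2 was the higher of its pair for all 3 genes. Without it the fasted log2 differences of Mup1 and Mup9 were -3.16 and -3.09, and without its group mate -1.66 and -2.12, where all libraries gave -2.41 (SE 0.492) and -2.60 (SE 0.334).

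**Figure D3:**
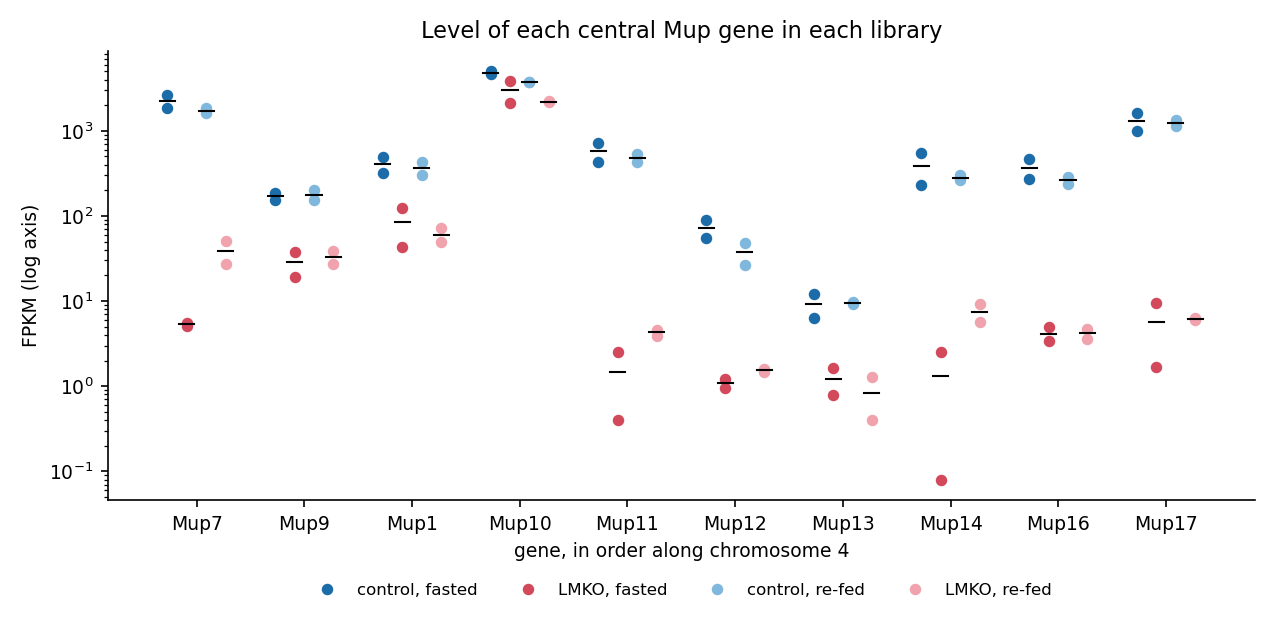
FPKM of each central Mup gene (log axis), in order along chromosome 4, in each library (points, 2 per group) with group means (black lines). Control points of Mup7 and Mup17 lie between 983 and 2642 FPKM and LMKO points of the same genes at 50.5 or lower, whereas those of Mup10 lie between 2098 and 5019 in all groups.

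**Figure D4:**
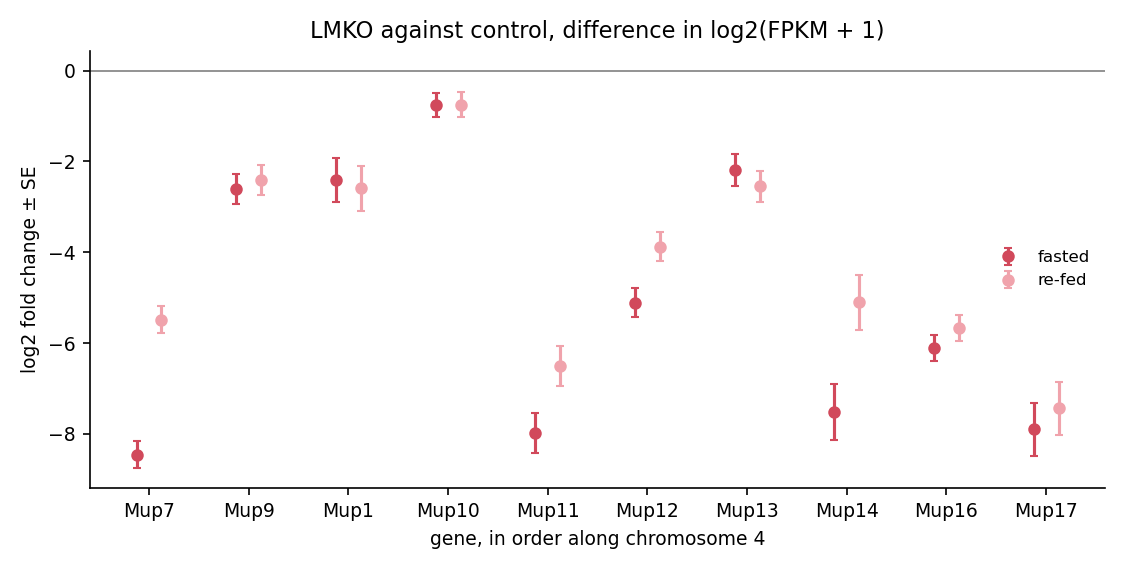
Difference between LMKO and control in log2(FPKM + 1) for each central Mup gene, in fasted and re-fed livers (points) with the standard error of the limma fit (bars). Values run from -8.45 (Mup7, fasted) to -0.75 (Mup10, re-fed).

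The order of levels, per length, was the same by group means in both control groups: Mup10, Mup7, Mup17, Mup11, Mup1, Mup14, Mup16, Mup9, Mup12 and Mup13. In fasted controls the libraries of neighbours overlapped from Mup11 through Mup1 and Mup14 to Mup16, and in re-fed controls between Mup14 and Mup16, so those ranks are not separated. In fasted LMKO the order was Mup10, Mup1, Mup9, Mup17, Mup7, Mup16, Mup11, Mup14, Mup13 and Mup12. Neighbours overlapped between Mup17 and Mup7 and along the last 4 genes. Mup17, at 1.67 and 9.58 FPKM, also overlapped Mup16, Mup11 and Mup14 and is not separated from them. In re-fed LMKO it was Mup10, Mup1, Mup7, Mup9, Mup14, Mup17, Mup11, Mup16, Mup12 and Mup13, with overlap between Mup1 and Mup7, Mup7 and Mup9, Mup14 and Mup17, and Mup11 and Mup16.

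The makeup of the pool differed between the genotypes. Mup10 supplied 51.8% and 42.5% of the summed FPKM in fasted controls and 45.97% and 43.6% in re-fed controls, and 96.3%, 95.4%, 93.8% and 93.0% in the LMKO libraries. Mup7 supplied 20.9% and 22.4% in fasted and 19.8% and 21.6% in re-fed controls, and 0.235%, 0.138%, 1.15% and 2.15% in LMKO. Mup17 supplied between 10.9% and 16.5% in the control libraries and between 0.0765% and 0.270% in the LMKO libraries. Without Mup10, the other 9 genes summed to 4333 and 6782 FPKM in fasted controls and 79.8 and 186 in fasted LMKO, 41.8-fold lower, and to 4361 and 4799 against 148 and 165 in the re-fed state, 29.3-fold lower.

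Re-feeding was not the comparison that chose the genes, and it was tested with limma across all 10865 loci with Benjamini-Hochberg adjustment. It used the same libraries, however, as the genotype differences that did choose them. The test is therefore not independent of the choice, above all in LMKO liver, where low values favoured it. In control liver, 24 h of food after the fast changed the level of 0 of the 10 genes at an adjusted p under 0.05, in a comparison where 22.8% of all loci rose and 10.5% fell. Mup12 was the one gene with an unadjusted p under that level (0.0210), which 45.6% of all loci had: its 55.4 and 90.2 FPKM in fasted controls stood above 26.8 and 48.7 in re-fed controls, a log2 difference of -0.95 (SE 0.317, adjusted p = 0.0589 by limma). Over 17 alternative fits its adjusted p lay between 0.0301 and 0.254, and 5 of them called it, among them those without fasted control replicate 1 (0.0396) and without re-fed control replicate 2 (0.0361).

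None of the other log2 differences in control liver passed the test. Mup7 differed by -0.38 (SE 0.294, adjusted p = 0.358 by limma), Mup10 by -0.38 (SE 0.267, 0.304), Mup17 by -0.03 (0.973), and Mup13, the highest, by 0.08 (0.875). Mup7, Mup10 and Mup12 had both re-fed libraries below both fasted ones, 3 of 10 genes beside 25% of all loci, and 0 of 10 lay above, beside 43.9%. The median over the 10 genes was -0.28, beside 0.125 over all loci. Their sum was 1.25-fold lower after re-feeding, 8290.2 ± 308 against 10395 ± 1988 FPKM, with the 2 groups not overlapping. Dividing each library by its median ratio moved the median of all loci by -0.124 and the share of rises among called loci from 68.5% to 51.4%, and it turned Mup9 (0.05 to -0.103) and Mup13 (0.08 to -0.057) negative.

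In LMKO liver the fasted levels of most copies were very low, and these levels had a part in the choice of the genes. After re-feeding Mup7 and Mup14 were higher. They were 2 of 10 genes called, both higher, beside 23.2% of all loci called higher and 16.3% called lower, so the share of the copies called was near that of the transcriptome. Mup7 rose from 5.13 and 5.596 to 27.4 and 50.5 FPKM, 7.27-fold, a log2 difference of 2.59 (SE 0.294, adjusted p = 0.00203 by limma). This call was made by all 17 alternative fits, with adjusted p between 0.00169 and 0.0146. The re-fed LMKO mean of 39.0 ± 16.3 FPKM was still far below the 1721 ± 171 FPKM of re-fed controls.

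Mup14 rose from 2.54 and 0.0794 to 5.62 and 9.28 FPKM, 5.69-fold by the means, with a log2 difference of 2.08 (SE 0.609, adjusted p = 0.0347 by limma). Its call was made by 9 of 17 alternative fits, with adjusted p between 0.0179 and 0.146. The call was lost without fasted LMKO replicate 2 (0.139), the library listed at 0.0794 FPKM, without either re-fed LMKO replicate (0.0719 and 0.146) and without either re-fed control (0.057 and 0.0568). Mup7 and Mup14 are identical over the coding start shown above, and Mup14 has the smallest share of sequence of its own; the part of read sharing in its value was not tested.

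Mup11 went from 2.55 and 0.404 to 3.94 and 4.63 FPKM and Mup12 from 0.945 and 1.23 to 1.61 and 1.46, without overlap, and neither passed the test (1.24, SE 0.441, adjusted p = 0.0630 by limma; 0.28, SE 0.317, 0.504). Mup11 passed without fasted LMKO replicate 1 (1.91, adjusted p = 0.0170 by limma) and with quantile normalization (1.27, 0.048). With Mup7 and Mup14 these made 4 of 10 genes above their fasted libraries, beside 41.5% of all loci, and 0 of 10 lay below, beside 33.8%. The summed FPKM of Mup7, Mup11, Mup12, Mup14, Mup16 and Mup17 was 3.29-fold higher in re-fed than in fasted LMKO, and Mup7 made up 39.0 FPKM of the re-fed mean of 62.6.

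The other 6 genes did not pass in LMKO. Mup10 differed by -0.37 (SE 0.267, adjusted p = 0.309 by limma) and Mup1 by -0.32 (0.633), and Mup9 by 0.25 (0.581), Mup17 by 0.43 (0.589), Mup16 by 0.01 (0.974) and Mup13 by -0.27 (0.559). Fasted LMKO libraries of Mup10 spanned those of the re-fed group. Without fasted LMKO replicate 1 Mup10 was called lower (-0.81, adjusted p = 0.0229 by limma) and without replicate 2 it was at 0.08, while Mup17 was called higher without replicate 2 (1.42, 0.0292). The sum of the 10 genes was 1.32-fold lower after re-feeding, with overlap, and 1.18-fold higher once Mup10 was left out. The difference between the re-feeding responses of control and LMKO liver was not tested.

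**Figure D5:**
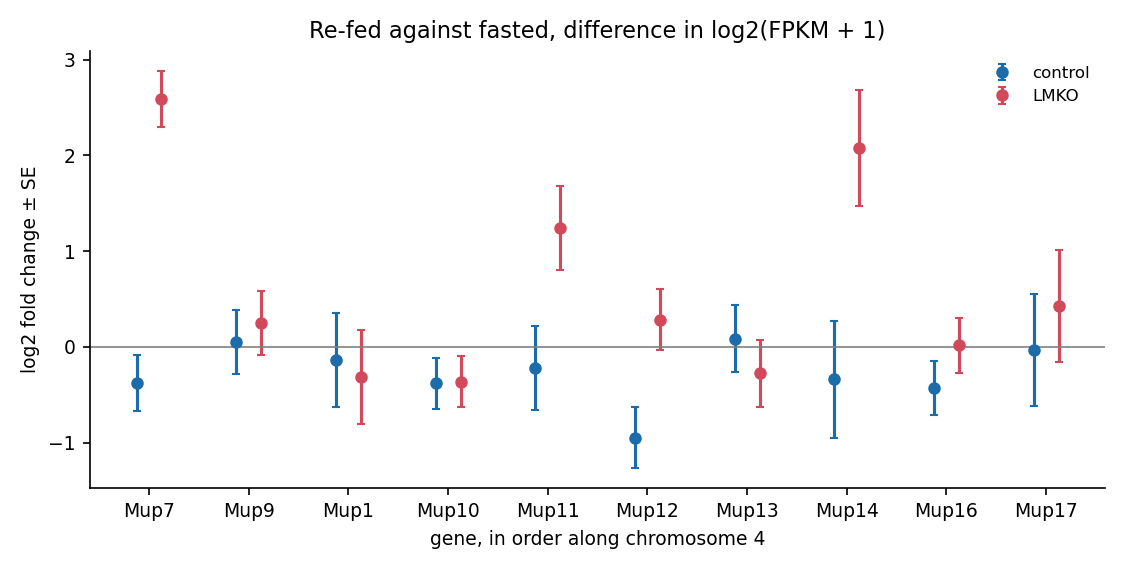
Difference between re-fed and fasted livers in log2(FPKM + 1) for each central Mup gene, in control and LMKO mice (points) with the standard error of the limma fit (bars). Mup7 (2.59) and Mup14 (2.08) in LMKO are the 2 values that passed the test; control values lie between -0.95 and 0.08.

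Agreement between the mice of a group was poorest in fasted LMKO. The ratio of the higher to the lower library, taken per gene, ran from 1.09 to 32.0 there (median 2.03), with Mup14 the highest, and from 1.08 to 2.34 in fasted controls (median 1.64). In the re-fed state it ran from 1 to 1.82 in controls (median 1.18) and from 1.03 to 3.22 in LMKO (median 1.38). For the sum of the 10 genes the ratios were 1.31, 1.86, 1.05 and 1.02 in fasted controls, fasted LMKO, re-fed controls and re-fed LMKO.

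The growth hormone axis and other regulators of Mup transcription were read from a list of 21 hormone receptors, signalling partners, growth hormone targets and liver transcription factors, all of them measured. In control liver re-feeding raised 3 and lowered 1 of the 21, beside 22.8% and 10.5% of all loci. Ghr, the growth hormone receptor, rose by 1.19 (SE 0.265, adjusted p = 0.0176 by limma), Igfals, a liver-made partner of circulating insulin-like growth factors and a growth hormone target, by 1.66 (0.0202), and Cebpa, a hepatocyte transcription factor, by 0.88 (0.0257). Cebpb, a related factor, fell by 1.28 (0.00691). The list's median was -0.10, beside 0.125 over all loci.

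In LMKO liver 0 of the 21 rose and 6 fell, beside 23.2% and 16.3% of all loci, with a median of -0.23 beside 0.0609 over all loci. Nr3c1, the glucocorticoid receptor, fell by 0.81 (adjusted p = 0.00965 by limma), Hnf4a, a master hepatocyte factor, by 0.62 (0.0193), Thrb, the thyroid hormone receptor beta, by 0.46 (0.0195), and Jak2, the kinase of the growth hormone receptor, by 0.70 (0.0204). Stat5b, a factor that JAK2 activates, was named after its value was seen and fell by 0.59 (0.0353). Other genes of the growth hormone axis on the list went both ways, and none of those that follow passed. Igf1 was higher by 0.54 (adjusted p = 0.0797 by limma), Igfals by 0.75 (0.169), Stat5a by 0.32 (0.14) and Ghr by 0.31 (0.376). Socs2 was lower by 1.85 (0.184) and Socs3 by 0.68 (0.257).

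Between genotypes limma called 0 of the 21 in either state, where 0.0184% of all loci were called higher and 0.147% lower in fasted livers, and 0.0276% and 0.0736% in re-fed livers. At an unadjusted p under 0.05 there were 4 in fasted and 0 in re-fed livers, beside 12.4% and 11.7% of all loci. Among them were Cebpb (-1.31, adjusted p = 0.0979 by limma), Nr3c1 (0.56, 0.253) and Igfals (1.05, 0.352). Cebpb stood at 31.0 and 42.9 FPKM in fasted controls, at 13.3 and 15.0 in fasted LMKO, at 13.5 and 15.4 in re-fed controls and at 13.97 and 10.1 in re-fed LMKO, so fasted controls were the group apart.

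Mup genes belong to the male-biased genes of mouse liver, and 15 of 16 others on such a list were tested. Re-feeding raised 7 and lowered 1 of them in control liver, and raised 6 and lowered 0 in LMKO liver; of all loci, 22.8% rose and 10.5% fell in controls, and 23.2% and 16.3% in LMKO. Nudt7, a peroxisomal coenzyme A hydrolase, rose by 2.20 in controls (adjusted p = 0.00396 by limma) and 1.85 in LMKO (0.00462). Gstp1, a glutathione transferase, rose by 1.66 (0.00586) and 2.03 (0.00245), and Susd4, a complement regulator, by 1.31 (0.0101) and 1.06 (0.0154). Selenbp2, a selenium-binding protein with a near-identical copy, rose by 3.07 (0.0103) and 5.03 (0.00206).

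Between genotypes limma called 0 of these 15 in either state, with 6 in fasted and 2 in re-fed livers at an unadjusted p under 0.05, beside 12.4% and 11.7% of all loci. Selenbp2 had the smallest p in both states. It stood at 139 and 34.5 FPKM in fasted controls, at 1.75 and 2.89 in fasted LMKO, at 653.5 and 533.5 in re-fed controls and at 117 and 96.4 in re-fed LMKO, a log2 difference of -4.43 fasted (adjusted p = 0.0541 by limma) and -2.46 re-fed (0.277).

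Of 13 female-biased liver genes 5 were tested. Re-feeding lowered 3 in control liver, beside 10.5% of all loci. Cyp17a1, a steroid hydroxylase, fell by 2.88 (adjusted p = 0.0157 by limma), Cyp2a4 fell by 2.59 (0.0294) and Acot3 fell by 2.07 (0.0333). In LMKO liver, where 16.3% of all loci fell, it lowered 2, Acot3, which fell by 2.82 (0.0103), and Cyp2a4, which fell by 3.26 (0.0116). It raised 0 of the 5 in either genotype. Between genotypes limma called 0 of the 5, with 1 in fasted and 2 in re-fed livers at an unadjusted p under 0.05, beside 12.4% and 11.7% of all loci. These were A1bg, a plasma glycoprotein gene, in both states (2.17, adjusted p = 0.360 by limma, and 2.36, 0.372) and Cyp17a1 in re-fed livers (1.88, 0.358), each higher in LMKO.

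Other Mup genes were compared to see whether they shared the pattern. The files hold 23 Mup loci, and of the 13 outside the central 10, 7 stayed under 1 FPKM in all libraries and 4 were listed at 0 throughout. Among those listed at 0, a locus named Mup2 starts at the same base as Mup10 and one named Mup15 at the same base as Mup7. Mup3 and Mup20, the abundant divergent copies, summed with Mup21 to 6605 and 7978 FPKM in fasted controls, to 2918 and 2256 in fasted LMKO, to 4782 and 6761 in re-fed controls and to 4782 and 3938 in re-fed LMKO. The LMKO means of this sum were 2.82-fold lower fasted and 1.32-fold lower re-fed, against 3.34-fold and 3.50-fold for the central sum. The re-fed sum mixes unlike genes: Mup3 was 1.70-fold and Mup21 3.64-fold lower in re-fed LMKO, and Mup20 1.28-fold higher. Mup8, low in all libraries, was 66.0-fold lower fasted and 32.9-fold lower re-fed. Mup20, whose product darcin attracts females, stood at 2741 and 3399.99 FPKM in fasted controls, at 1101 and 534 in fasted LMKO, at 1641 and 1278 in re-fed controls and at 1819.9 and 1927 in re-fed LMKO. Over all 23 loci the sum was 3.10-fold lower in fasted and 2.09-fold lower in re-fed LMKO.

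The central genes span 1177.5 kb of chromosome 4 on mm9, from 60079341, the start of Mup7, to 61256864, the end of Mup17. Mup9 lies at 60432032 to 60434824, Mup1 at 60510885 to 60514832, Mup10 at 60591133 to 60595027, Mup11 at 60671339 to 60675267 and Mup12 at 60732254 to 60736153. Mup13 follows at 60885339 to 60889318, Mup14 at 60961069 to 60965030 and Mup16 at 61176625 to 61180518. Mup10, which differed least between genotypes, thus lies between Mup1 and Mup11, which differed by 4.82-fold and 393-fold in fasted livers. The 5 nearest tested loci on either side of the Mup cluster lay 52.07 to 407 kb before it (Snx30 to Rod1) and 135.6 to 258 kb after it (Slc31a2 to Prpf4). Their log2 genotype differences were 0.04 to 0.55 in fasted and -0.31 to 0.42 in re-fed livers. Of the 10, 0 were called. Of all loci, 0.0184% were called higher and 0.147% lower fasted, and 0.0276% and 0.0736% re-fed, so little is read from that count. In fasted livers Snx30, 1110054O05Rik, E130308A19Rik, Rod1, Slc31a2, Slc31a1 and Cdc26 were higher in LMKO without overlap, beside 33% of all loci. Hsdl2, Fkbp15 and Prpf4 overlapped.

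Over the 8 libraries, the genes outside the family whose log2(FPKM + 1) followed the log2 of the central sum most closely, among loci averaging 5 FPKM or more in some group, were Sfxn1, a mitochondrial serine transporter (Pearson r = 0.944), Anubl1 (0.937), Zfp326 (0.913), Phyh, a peroxisomal hydroxylase (0.903), and Egfr, the epidermal growth factor receptor (0.879). The central genes themselves lay between 0.868 (Mup14) and 0.988 (Mup1), but each is part of that sum, so these values cannot be set against the others. The libraries fall apart by genotype, so these are descriptions of 8 points in 2 clusters and carry no p. Sfxn1 stood at 50.4 and 58.9 FPKM in fasted controls, at 29.5 and 43.8 in fasted LMKO, at 56.9 and 48.3 in re-fed controls and at 35.3 and 36.9 in re-fed LMKO, a far narrower range than that of the Mup sum.

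Markers of other liver cells moved with genotype or feeding in part. Endothelial markers (6 of 6 measured) summed to 50.7 to 61.4 FPKM in fasted controls and 76.0 to 78.0 in fasted LMKO, and to 42.4 to 45.7 and 36.5 to 47.9 in the re-fed groups. Kupffer cell markers (6 of 7) summed to 73.6 to 83.4 and 80.9 to 106 in the fasted groups and to 57.0 to 73.6 and 30.8 to 47.3 in the re-fed groups. Cholangiocyte markers (5 of 5) summed to 8.40 to 12.03 and 8.12 to 9.43 fasted, and 28.5 to 30.1 and 24.2 to 26.3 re-fed. Of these 5 only 1 averaged at least 1 FPKM, so their sum is not a shift shared by the list. Stellate cell markers (6 of 6) summed to 11.9 to 12.4, 12.3 to 12.8, 14.3 to 22.1 and 10.8 to 11.2 in the order used above. Lymphoid markers summed to between 0.321 and 2.31 in all libraries. Of the markers of salivary and lacrimal glands, where other Mup genes are known to be active, 5 of 6 were in the files, and Bpifa2, Lcn11, Prol1 and Smr3a were listed at 0 in all libraries. The fifth, Amy1, an amylase gene that liver also transcribes, made up the whole sum. It stood at 189 to 234 FPKM in fasted controls against 286 to 310 in fasted LMKO, and at 122 to 134 against 239.8 to 274 in the re-fed groups. It was higher in LMKO without overlap in both states, as were 33% of all loci fasted and 25.6% re-fed. The part of these markers in the Mup values was not tested.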

How the data were processed

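The deposited values are FPKM per locus, 1 list of 23699 loci for each of 8 libraries; they are not counts, and how many fragments a library held is unknown. Per the submitters' processing notes, the authors used TopHat 1.4.1, SAMtools, Cufflinks 2.0.2, Cuffdiff 2.0.2 and build mm9. Low values of a locus stood in recurring ratios between libraries, which gave relative depths of 0.956 to 1.11, though no more than 17.1% of low loci sat at the ratio. Deposited starts count from 0 and were raised by 1.

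The test of re-feeding was limma's (version 3.58.1, R 4.3.3), fitted to log2(FPKM + 1) of the 10865 loci with at least 1 FPKM in at least 2 libraries. The model held the 4 group means, with 4 residual and 2.74 prior degrees of freedom (eBayes with trend), with two-sided p-values and Benjamini-Hochberg adjustment over all loci. The fit was tested on simulated data in which a small part of the loci changed. Loci as low as Mup11, Mup12, Mup13 and Mup14 in fasted LMKO were not among those changed, so the simulation does not cover changes at such levels. Genotype differences of the central genes are a description with the model's SE, as are sums. Alternatives were pseudocounts of 0.1 and 0.5, no filter, a minimum of 5 FPKM, median-ratio scaling, quantile normalization, no trend, the 4 libraries of a comparison alone, a replicate block and each library left out in turn; a group left with 1 library is then assumed to vary like the others.

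The 10 genes, the gene lists and the tests were chosen with earlier results of these data known. All 10 genes, Med23 and the other Mup genes were named, with up to 4 genes of smallest p per list, the 5 genes most like the sum and the 5 nearest loci on each side. One gene that this rule takes is not reported here. The reference annotation, of another build than the files, served for sequences by symbol; amino acid sequences were not used here.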

Additional observations from a re-analysis of the deposited data

Results flagged for a closer look

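The re-feeding response of 2 central genes went opposite ways in the 2 genotypes, with no overlap between fasted and re-fed libraries in either. Over all loci, 25% were lower without overlap in controls and 41.5% were higher without overlap in LMKO. How many loci did both was not counted, so nothing is read from the count of 2. Mup7 was lower in both re-fed controls (1600.1 and 1842 FPKM) than in both fasted ones (1878 and 2642), and higher in both re-fed LMKO libraries (27.4 and 50.5) than in both fasted ones (5.13 and 5.596), so that the LMKO log2 difference exceeded that of controls by 2.97. Mup12 was lower in re-fed controls (26.8 and 48.7 against 55.4 and 90.2) and higher in re-fed LMKO (1.61 and 1.46 against 0.945 and 1.23), and its log2 differences were 1.23 apart. Neither difference between the genotypes was tested. Of the 4 differences behind these values, the rise of Mup7 in LMKO passed limma's test and the other three did not.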

How the results depend on the processing

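In control liver, 0 of the 10 genes were called between re-fed and fasted mice; 1, Mup12, was called with median-ratio scaling, with quantile normalization and with the replicate block, and 0 to 1 when each library was left out in turn. In LMKO liver, 2 were called; 1, Mup7, was called with a pseudocount of 0.1, with no filter and with the replicate block, 3, with Mup11 added, with quantile normalization, and 1 to 4 with each library left out. The cause was not tested.

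The replicate block gave Mup12 an adjusted p of 0.0379 in controls and Mup14 one of 0.0554 in LMKO (limma); these were the 2 calls it changed. Replicate numbers are shared by the groups, but nothing says that they pair mice. The differences between replicates 1 and 2, over 10865 loci, correlated between groups at -0.084 to -0.008. These values show no sign of pairing across loci, but they cannot settle whether mice were paired.

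The log2 ratio of the summed FPKM between LMKO and control was -1.74 in fasted livers, -5.38 without Mup10, and -2.25 to -1.36 with each library left out; it was -1.81 in re-fed livers, -1.06 over all Mup loci, -4.87 without Mup10, and -1.85 to -1.77 with each library left out. Between re-fed and fasted LMKO it was -0.40 and turned to 0.24 over all Mup loci and 0.23 without Mup10, and ran from -0.78 to 0.12 with each library left out, 0.12 being without fasted LMKO replicate 2.

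All 10 genes stayed lower in LMKO without overlap with median-ratio scaling. Each library was also left out in turn, but leaving a library out cannot undo such a separation. Those settings could not lower the count, and nothing is read from them. Small re-feeding differences that passed no test changed sign: in controls Mup9 with median-ratio scaling (-0.103) and quantile normalization (-0.315) and Mup13 likewise (-0.057 and -0.023), and in LMKO Mup9 with quantile normalization (-0.003) and Mup16 with median-ratio scaling (-0.044). Leaving out single libraries in controls gave -0.44 to 0.17 for Mup1, -0.13 to 0.23 for Mup9, -0.60 to 0.15 for Mup11, -0.34 to 0.51 for Mup13, -0.95 to 0.27 for Mup14 and -0.40 to 0.33 for Mup17. In LMKO it gave -1.06 to 0.43 for Mup1, -0.23 to 0.73 for Mup9, -0.81 to 0.075 for Mup10, -0.63 to 0.079 for Mup13, -0.20 to 0.23 for Mup16 and -0.57 to 1.42 for Mup17.

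With 2 mice per group and no counts, the standard errors of the 10 genes on the log2 scale ran from 0.267 (Mup10) to 0.609 (Mup14), and the levels of single copies depend on how shared reads were divided.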
